A study of Mus musculus with 24 samples.

Results

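Cholesterol is made in every cell from acetyl-CoA by the mevalonate pathway, and the adult brain makes nearly all of its own because lipoprotein cholesterol does not cross the blood-brain barrier. The enzymes of the pathway are switched on together by SREBP-2, a membrane-bound transcription factor that is carried to the Golgi by SCAP, cut there and released to the nucleus when sterols run low, and that is held back in the endoplasmic reticulum by the INSIG proteins when sterols are plentiful. In brain tissue the demand comes largely from myelin-forming oligodendrocytes, from astrocytes that supply neurons and from the turnover of synaptic membranes.

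The genes described here are 7 members of this pathway, chosen by name: Hmgcs1, Idi1, Fdft1, Sqle, Lss and Dhcr7, which encode enzymes, and Insig1, which encodes a sterol sensor of the control loop. The annotation of the authors' genome build used here held 6 of the 7, and all 6 were among the 18593 genes tested of 38293 genes in the count table. Hmgcs1, the synthase that makes HMG-CoA, had no entry in that annotation and its counts were not analysed here. The samples were pools of nucleus accumbens (NAc) tissue from C57BL/6J mice, 9 weeks old by the labels and 8 weeks by the study's methods, and the data were mRNA counts and, from the same design, small RNA counts. In each assay there were 12 libraries in 4 groups of 3: unstressed males (NSM), stressed males (SM), unstressed females (NSF) and stressed females (SF). Stress was subchronic variable stress (SCVS), in which 3 stressors (foot shock, tail suspension and restraint) alternated over 6 days, 1 h each day, and tissue was taken 24 h after the last of them. Controls stayed in their home cages, and females of both groups were in proestrus or estrus at collection. Punches were pooled before extraction, 10 punches of 5 mice per library, so that the spread between libraries is one between pools and not between single mice.

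The mRNA libraries held 41076780 to 60867747 counted reads, the library NSF2 being the deepest, and a pathway gene had between 1434 and 3783 reads in any library. Xist and Ddx3y matched the labelled sex in all 12 libraries, and replicate libraries differed by more than sampling noise in every group. Levels are given as CPM (reads per library scaled to a common total) after scaling by the trimmed mean of M-values (TMM), and differences are log2 fold changes from voom-limma with the standard error (SE) and the p-value adjusted by Benjamini and Hochberg's method over all 18593 genes. A gene counts as past the study's thresholds at an unadjusted p under 0.05 and a change of at least 1.3-fold. In bulk tissue, fewer cells of a type and less RNA per cell cannot be told apart. Striatal projection neuron markers were abundant, with summed levels of 4070 to 5148 CPM over 8 genes. Markers of cortical glutamatergic neurons, which the NAc itself lacks, ranged from 133 to 220 CPM (7 genes summed) in NSM, from 249 to 413 in SM, from 354 to 657 in NSF and from 309 to 525 in SF. Such a sum is weighted to the most abundant genes. Gene by gene, 7 of 7 were higher in SM than in NSM, with a median log2 difference of 2.68. Between SF and SM, 5 of 7 were lower in SF and 2 higher, with a median of -0.90.

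Of the 7 genes, 5 had an entry in the RefSeq promoter table (build GRCm38.p6, 250 bases before to 50 bases after the annotated start). The promoters of Hmgcs1 (chr13:119690101-119690400), Idi1 (chr13:8885356-8885655), Insig1 (chr5:28071162-28071461) and Lss (chr10:76531355-76531654), all on the plus strand, are shown because the genes of the pathway are known for a shared control through such sequences. Msmo1 (chr8:64733529-64733828, minus strand), a sterol C4-methyl oxidase, is shown with them because its level was the most like theirs across the libraries, as described further on. Capitals mark the sterol element TCACNCCAC, which SREBP proteins bind, and the box CCAAT, which the factor NF-Y binds, each searched on both strands (CCAAT reads ATTGG on the other strand).
Hmgcs1: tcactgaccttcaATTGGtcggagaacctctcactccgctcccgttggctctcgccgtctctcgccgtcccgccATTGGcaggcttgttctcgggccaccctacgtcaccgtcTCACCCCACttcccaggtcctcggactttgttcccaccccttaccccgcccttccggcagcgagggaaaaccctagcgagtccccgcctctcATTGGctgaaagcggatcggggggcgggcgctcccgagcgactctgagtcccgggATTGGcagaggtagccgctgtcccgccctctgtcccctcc
Idi1: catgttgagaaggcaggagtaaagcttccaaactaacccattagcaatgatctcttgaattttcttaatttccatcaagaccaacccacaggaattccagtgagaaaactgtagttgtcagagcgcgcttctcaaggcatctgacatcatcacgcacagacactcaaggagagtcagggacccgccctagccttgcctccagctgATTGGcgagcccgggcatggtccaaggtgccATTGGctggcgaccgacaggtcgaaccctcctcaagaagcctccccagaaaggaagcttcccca
Insig1: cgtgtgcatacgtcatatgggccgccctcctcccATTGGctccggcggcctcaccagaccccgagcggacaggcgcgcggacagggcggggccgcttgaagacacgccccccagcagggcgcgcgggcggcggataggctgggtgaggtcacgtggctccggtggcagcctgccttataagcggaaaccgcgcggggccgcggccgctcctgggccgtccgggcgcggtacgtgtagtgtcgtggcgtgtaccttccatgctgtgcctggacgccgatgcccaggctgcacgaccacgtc
Lss: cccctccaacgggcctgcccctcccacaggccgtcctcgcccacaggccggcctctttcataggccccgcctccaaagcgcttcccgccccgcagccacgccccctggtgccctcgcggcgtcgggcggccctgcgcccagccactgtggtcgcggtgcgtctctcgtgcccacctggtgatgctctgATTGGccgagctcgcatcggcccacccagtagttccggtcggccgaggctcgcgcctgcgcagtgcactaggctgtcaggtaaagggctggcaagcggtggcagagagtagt
Msmo1: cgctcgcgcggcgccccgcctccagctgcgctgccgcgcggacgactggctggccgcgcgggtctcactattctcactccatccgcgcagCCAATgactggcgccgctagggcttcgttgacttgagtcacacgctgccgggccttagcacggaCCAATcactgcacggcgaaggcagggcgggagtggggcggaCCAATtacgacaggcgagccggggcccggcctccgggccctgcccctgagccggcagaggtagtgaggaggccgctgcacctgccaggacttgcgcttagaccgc

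The sterol element was found in 1 of the 5 genes with an entry, Hmgcs1, at positions -137 to -129 from the start, whereas 1.44% of the 27025 genes in the table held it in at least 1 entry. The CCAAT box was found in at least 1 entry of each of the 5 genes, against 41.1% of all genes, and so was the box GGGCGG, which Sp1 binds (38.2% of all genes). Dhcr7 has 3 entries, of which 1 held the CCAAT box and 2 held the Sp1 box. Hmgcs1 had 4 CCAAT boxes, Idi1 had 2, and Insig1 and Lss had 1 each. A match is a run of letters only, and a missing match says nothing of the factor.

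The enzymes and Insig1 were expressed at similar, moderate levels. Per length of the longest coding transcript, the mean over 12 libraries was 21.3 RPKM ± 1.23 (SD, n = 12) for Fdft1, squalene synthase, the first enzyme committed to sterols, and 18.9 ± 1.97 RPKM for Insig1. Sqle, squalene epoxidase, a rate-limiting step, was at 15.5 ± 1.39 RPKM and Dhcr7, the reductase that makes cholesterol from 7-dehydrocholesterol, at 14.6 ± 1.40 RPKM. Idi1, the isomerase of the isoprenoid branch, was at 11.8 ± 0.934 RPKM, and Lss, lanosterol synthase, was lowest at 8.10 ± 0.424 RPKM. Neighbours in this order overlapped in their ranges over libraries from Fdft1 (19.3 to 23.3 RPKM) through Insig1 (15.2 to 22.1), Sqle (13.7 to 18.1) and Dhcr7 (12.5 to 17.5) to Idi1 (9.73 to 13.2), and Lss lay below them all (7.40 to 8.80). With all exons counted as length, Sqle fell to 7.72 RPKM, Lss to 3.51 RPKM and Dhcr7 to 10.8 RPKM, which puts Sqle and Dhcr7 below Idi1. Between the lowest and the highest library the level of a gene differed by no more than 1.45-fold (Insig1), and least for Lss (1.19-fold).

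**Figure D1:**
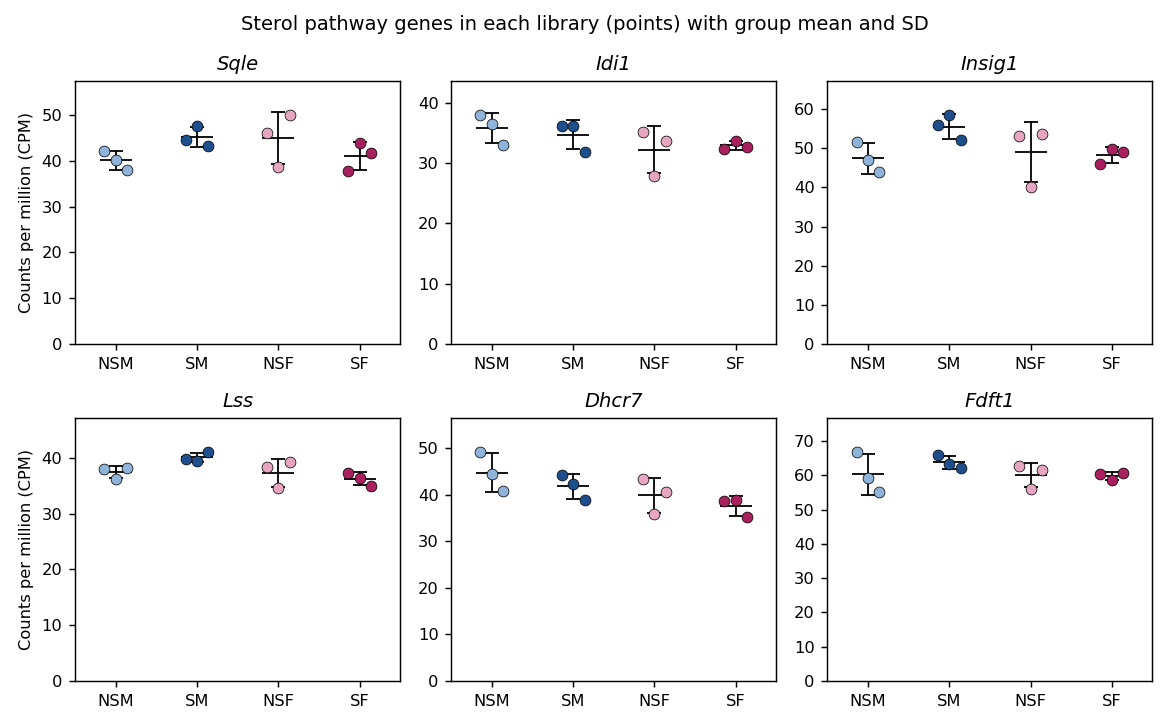
Level of each of the 6 measured genes in CPM (y axis, from 0) in the 12 mRNA libraries (points) of the 4 groups (x axis), with the group mean and SD (black). Insig1 ran from 52.2 to 58.4 CPM in stressed males, above all 3 unstressed male libraries, while the female groups overlapped for every gene.

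The early enzyme, Idi1 (ENSMUSG00000058258, chr13:8884852-8891641 on NCBIM37, plus strand), was at 37.9, 36.5 and 33.0 CPM in the NSM libraries and at 36.1, 36.1 and 31.9 CPM in the SM libraries. In females it was at 35.2, 27.9 and 33.7 CPM without stress and at 32.4, 33.7 and 32.7 CPM after it. The stressed and unstressed groups overlapped in each sex, and NSF2 was the lowest of all 12 libraries. The stress difference was -0.05 ± 0.083 (log2, SE, adjusted p = 0.775) in males and 0.04 ± 0.083 (adjusted p = 0.966) in females.

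Fdft1 (ENSMUSG00000021273, chr14:63763990-63796630, minus strand) was at 66.8, 59.1 and 55.1 CPM in NSM, and at 65.9, 63.4 and 62.0 CPM in SM. The female libraries held 62.6, 56.1 and 61.4 CPM without stress and 60.3, 58.6 and 60.5 CPM after it. Neither sex separated its groups. Fdft1 shares exon sequence with Ctsb on the opposite strand. The library kit does not mark strand, so reads over the shared sequence cannot be assigned by strand and may be mixed. The stress difference was 0.08 ± 0.065 (adjusted p = 0.481) in males and -0.0036 ± 0.066 (adjusted p = 0.996) in females.

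Sqle (ENSMUSG00000022351, chr15:59146632-59162747, plus strand) was at 42.2, 40.3 and 37.9 CPM in NSM and at 44.5, 47.6 and 43.3 CPM in SM. All 3 stressed male pools were thus above all 3 unstressed ones. In females the levels were 46.0, 38.7 and 49.9 CPM without stress and 37.7, 43.9 and 41.7 CPM after it, and these ranges overlapped. Sqle differed by 0.17 ± 0.085 (adjusted p = 0.264) in males and by -0.12 ± 0.085 (adjusted p = 0.948) in females.

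Lss (ENSMUSG00000033105, chr10:75994333-76019883, plus strand), which overlaps exons of 4930483K19Rik on the other strand, was at 38.1, 36.2 and 38.2 CPM in NSM and at 39.8, 39.5 and 41.1 CPM in SM, a separation of the groups by little over 1 CPM. The limit given for reads of Fdft1 and Ctsb holds for this overlap too. The NSF libraries held 38.3, 34.5 and 39.2 CPM and the SF libraries 37.4, 36.5 and 35.0 CPM, with overlap. Its stress difference was 0.10 ± 0.054 (adjusted p = 0.316) in males and -0.04 ± 0.055 (adjusted p = 0.956) in females.

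Dhcr7 (ENSMUSG00000058454, chr7:151009050-151034315, plus strand) was at 49.2, 44.4 and 40.8 CPM in NSM and at 44.2, 42.4 and 38.9 CPM in SM. In NSF it was at 43.3, 35.9 and 40.6 CPM and in SF at 38.7, 38.9 and 35.2 CPM. The stressed libraries lay within or below the range of their controls in both sexes, with overlap. Dhcr7 and Idi1 were the genes whose fitted difference in males was below 0, Dhcr7 with -0.10 ± 0.081 (adjusted p = 0.513), and in females Dhcr7 was at -0.08 (adjusted p = 0.948).

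Insig1 (ENSMUSG00000045294, chr5:28397952-28405201, plus strand), the sensor whose own transcription is switched on by SREBP, was at 51.6, 46.9 and 43.8 CPM in NSM and at 55.9, 58.4 and 52.2 CPM in SM. Here too the stressed male pools all lay above the unstressed ones. The NSF libraries were at 53.1, 40.1 and 53.6 CPM and the SF libraries at 45.9, 49.9 and 49.1 CPM, the stressed ones falling inside the range of the controls. Insig1 had the largest male difference of the 6, 0.23 ± 0.097, or 1.17-fold with a 95% interval of 1.01 to 1.35, at an unadjusted p of 0.0348 and an adjusted p of 0.196 in voom-limma. In females its difference was -0.0028 ± 0.097 (adjusted p = 0.998).

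In stressed males none of the 6 genes passed the study's thresholds or an adjusted p of 0.05, whereas 6.44% of all tested genes passed the first and 3.32% the second. Of the 6 genes, 4 were higher and 2 lower, with a median log2 difference of 0.09, against -0.01 over all genes. Sqle, Insig1 and Lss were the 3 whose groups did not overlap, each higher after stress, and 11.3% of all tested genes separated in this direction. The 95% intervals of 5 of the 6 lay within 1.3-fold in either direction, against 53.5% of all genes, the exception being Insig1. Summed oligodendrocyte markers (8 of 8 higher in SM, 2 of them past an adjusted p of 0.05) ran from 4978 to 5557 CPM in NSM and from 5969 to 6003 CPM in SM, summed erythroid markers (5 of 5 higher and past it) from 21.8 to 27.4 and from 38.5 to 47.2 CPM. Summed microglia markers (5 of 6 higher, 2 of them past it) ran from 237 to 253 CPM in NSM and from 265 to 293 CPM in SM. Of 7 astrocyte markers 6 were lower in SM, 1 of them past an adjusted p of 0.05. Their summed level overlapped, from 3591 to 4219 CPM in NSM and from 3947 to 4469 CPM in SM. The part of the erythroid cells and the microglia in the levels of Sqle, Insig1 and Lss was not tested. With the oligodendrocyte markers as a covariate, the male difference was 0.01 for Sqle, 0.05 for Insig1 and 0.10 for Lss, and with the cortical glutamatergic markers it was 0.02, 0.04 and 0.00. Over all settings other than left-out libraries, the male difference ran from 0.0076 to 0.3056 for Sqle and from 0.0421 to 0.3482 for Insig1. For Lss it ran from 0.0016 to 0.1192. Summed oligodendrocyte and cortical markers did not overlap between NSM and SM, so these covariates and stress cannot be fully told apart.

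In stressed females none of the 6 passed either rule, where 1.73% of all genes passed the thresholds and 0% an adjusted p of 0.05 in voom-limma. That count of 0 genes was also 0 by edgeR and 3 by DESeq2, and 786 of the 18593 genes tested had an unadjusted p under 0.05. Of the 6 genes, 1 was higher and 5 were lower, with a median of -0.02 (all genes, -0.0039), and no gene separated the groups, where 4.9% of all genes separated upward and 6.41% downward. All 6 intervals lay within 1.3-fold (61% of all genes). These values rest on NSF2, which was the lowest of the 12 libraries for Idi1, Insig1 and Lss and lowest of its group for all 6. Without it the median was -0.12, all 6 differences were below 0, and Sqle was at -0.22 (adjusted p = 0.319), Dhcr7 at -0.16 (adjusted p = 0.701) and Insig1 at -0.14 (adjusted p = 0.668).

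**Figure D2:**
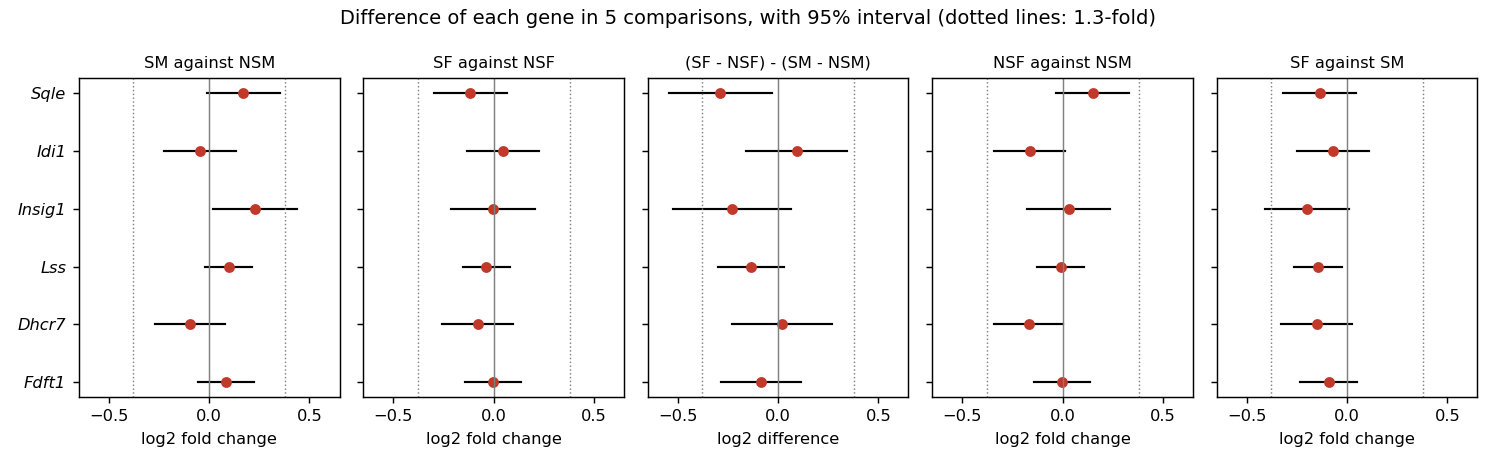
Difference of each of the 6 genes (y axis) on the log2 scale (x axis; point, voom-limma estimate; bar, 95% interval) in 5 comparisons, with dotted lines at 1.3-fold. In the right-hand panel, stressed females against stressed males, all 6 points lie below 0, from -0.20 for Insig1 to -0.07 for Idi1.

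Whether stress acted differently in the sexes was asked by the difference of the stress effects, female minus male. None of the 6 genes passed the thresholds (4.42% of all genes did) or an adjusted p of 0.05 (0.0269%). The median was -0.11, and 4 of the 6 were below 0. Sqle was at -0.29 ± 0.120, with an unadjusted p of 0.0315 and an adjusted p of 0.473, and Insig1 at -0.23 ± 0.137 (adjusted p = 0.645). Their intervals reached beyond 1.3-fold, to 0.685 and 0.695 as ratios, while those of the other 4 did not, against 44.4% of all genes within. Without NSF2, Sqle was at -0.39 (adjusted p = 0.0806), past the thresholds, and Insig1 at -0.37 (adjusted p = 0.0950). Leaving NSF2 out also raised the calls over all genes, from 822 to 1103 past the thresholds and from 5 to 218 at an adjusted p of 0.05.

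Unstressed females and males did not separate for any of the 6 genes, where 11% of all genes separated upward and 8.45% downward, and none passed the thresholds (5.31%) or an adjusted p of 0.05 (0.285%). The differences, female minus male, ran from -0.17 for Dhcr7 (adjusted p = 0.336) and -0.16 for Idi1 to 0.15 for Sqle, with a median of -0.01, and all 6 intervals were within 1.3-fold (56.9% of all genes). After stress all 6 were lower in females than in males. The differences were -0.20 ± 0.097 for Insig1 (adjusted p = 0.329), -0.15 ± 0.083 for Dhcr7 (adjusted p = 0.387) and -0.15 ± 0.055 for Lss (adjusted p = 0.205), and the median was -0.14, against 0.01 over all genes. Sqle, Fdft1 and Idi1 followed with -0.14, -0.09 and -0.07. Insig1, Lss, Dhcr7 and Fdft1 did not overlap between the groups, each lower in SF, where 7.65% of all genes did so, although Dhcr7 was separated by under 0.1 CPM. None passed the thresholds (5.55%) or an adjusted p of 0.05 (0.145%), and 5 of 6 intervals were within 1.3-fold (55.2%). These comparisons share groups and are not independent of each other. Summed over the 6 genes, the level was 286, 263 and 249 CPM in NSM, 287, 287 and 269 CPM in SM, 279, 233 and 278 CPM in NSF, and 252, 261 and 254 CPM in SF.

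Across libraries the levels of the 6 genes were correlated with each other. Over the 15 pairs of genes, Pearson's r of log2 CPM over 12 libraries had a median of 0.567 and ran from 0.265 (Sqle with Dhcr7) to 0.854 (Idi1 with Dhcr7). The median Spearman's rho was 0.545. After each group's mean was taken off, so that only the spread between pools of a group was left, the median r was 0.760, from 0.358 (Lss with Fdft1) to 0.943 (Idi1 with Insig1). Without NSF2 these medians were 0.434 and 0.687. The points share library, depth and scaling, and the coefficients are a description.

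**Figure D3:**
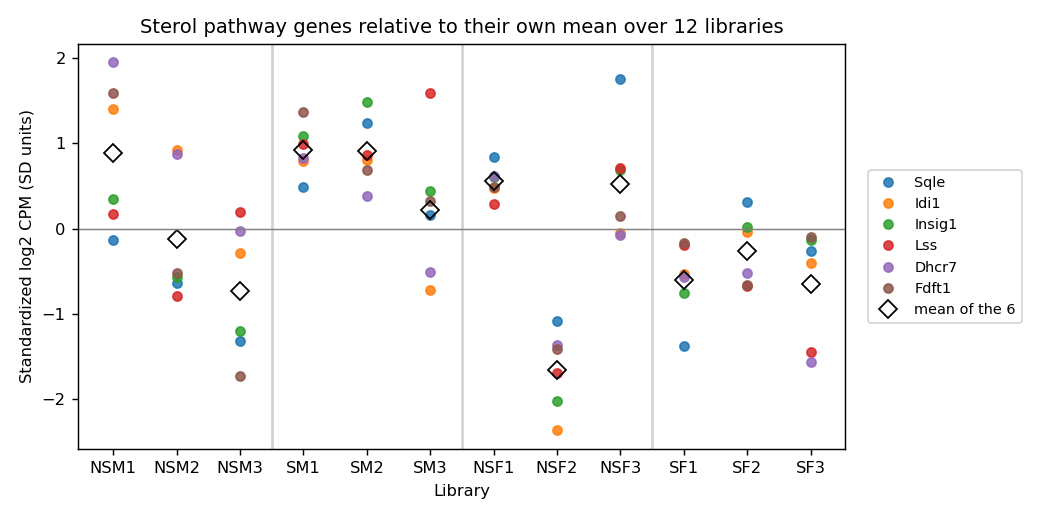
Log2 CPM of each of the 6 genes (coloured points) in units of its own SD around its mean over the 12 mRNA libraries (x axis), with the mean of the 6 (open diamonds). The mean was lowest in NSF2 at -1.66 and highest in SM1 at 0.929 and SM2 at 0.910, and the 3 SF libraries lay from -0.653 to -0.261.

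The genes most like the mean of the 6 standardized levels, among 14040 ranked genes with at least 50 reads on average, began with another enzyme of the same pathway. Msmo1 (listed as Sc4mol) was first with r = 0.943 and rho = 0.923. It was at 72.1, 65.4 and 57.1 CPM in NSM, 69.6, 72.7 and 66.7 in SM, 66.6, 51.6 and 63.4 in NSF, and 58.0, 58.2 and 60.6 in SF. Its lowest library was NSF2, as for Idi1, Insig1 and Lss. Arl2bp, Gng3, Rapgef5, 2900011O08Rik, Usp46 and Phyhipl followed with r from 0.893 to 0.914, and Vps28, a subunit of the endosomal sorting complex ESCRT-I, was eighth with 0.876 (rho = 0.923).

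Of the other 16 sterol pathway enzymes that were ranked, 5 were among the top 100 of the 14040 genes: beside Msmo1 these were Hsd17b7 (r = 0.873), Fdps (0.868), Cyp51 (0.817) and Acat2 (0.797). Of the 16, 7 were above the 95th percentile, the median r was 0.542, and the median over all genes was 0.00. Mvk and Lbr were the exceptions on the negative side with -0.31 and -0.49, next to Tm7sf2 at -0.01. For the 9 genes of SREBP control and sterol transport the median r was 0.369. Among them Srebf1, Srebf2 and Scap ran the other way, with r of -0.68, -0.61 and -0.63. Insig2 (0.634), Mbtps2 (0.632), the sterol carrier Stard4 (0.631), Npc1 (0.498) and Npc2 (0.369) were on the positive side, and Mbtps1 was at -0.02. The 10 fatty acid genes had a median r of 0.519, and 4 of them were above the 95th percentile, with Fads1 highest (0.775). Of 12 export and turnover genes none was above it, and Apoe was at -0.69. Without NSF2, Msmo1 was at rank 2 (r = 0.914), with Fdps at rank 89 and Hsd17b7 at rank 95. Acat2 and Cyp51 were then at ranks 420 and 556, outside the top 100. The fatty acid gene Fads1 was at rank 60, ahead of Fdps and Hsd17b7.

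With the group means taken off, the list was led by Phyhipl (r = 0.974), Ndrg3, 2610002I17Rik, Rapgef5, Cd200, Cdc42se1, Dync1i1 and Sh3gl2 (0.933), and Msmo1 stood at 0.927. With the group means kept, the mean of the 6 levels ran against the total count of the library (r = -0.51, and -0.12 without NSF2). Against the mean marker levels its r was then -0.54 for oligodendrocyte precursors, 0.505 for erythroid cells, 0.268 for cortical glutamatergic neurons, 0.214 for oligodendrocytes and 0.04 for astrocytes. With the group means taken off, r was -0.45 for the total count, -0.19 for oligodendrocyte precursors, 0.403 for erythroid cells, 0.445 for cortical glutamatergic neurons, 0.469 for oligodendrocytes and 0.491 for astrocytes. The part of depth or of any of these cell types in the shared pattern was not tested.

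None of the other 16 sterol enzymes tested (Idi2 had too few reads) reached an adjusted p of 0.05 in any of the 5 comparisons. In stressed males 11 were higher and 5 lower, with a median of 0.06, and none passed the thresholds. Nsdhl, a C4 decarboxylase, and Acat2, the thiolase at the start of the pathway, had the smallest p-values. Nsdhl was at 16.0, 13.5 and 14.4 CPM in NSM and 18.5, 17.7 and 17.2 CPM in SM without overlap, where 11.3% of all genes separated upward. The difference was 0.28 ± 0.076 (adjusted p = 0.0605) for Nsdhl and 0.20 ± 0.073 (adjusted p = 0.138) for Acat2. In stressed females 9 were higher and 7 lower, with a median of 0.01. Between stressed females and stressed males 12 of 16 were lower, with a median of -0.06, among them Msmo1 at -0.24 (adjusted p = 0.208) and Nsdhl at -0.22 (adjusted p = 0.165).

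Of 9 genes of SREBP control and sterol transport, none reached an adjusted p of 0.05 in any of the 5 comparisons. In stressed males 6 were higher and 3 lower, with a median of 0.04, beside -0.01 over all genes tested. Stard4, a carrier of sterols between membranes, and Mbtps2, the site-2 protease that frees SREBP from the membrane, had the smallest p-values. Stard4 was at 28.0, 28.3 and 24.3 CPM in NSM and at 33.5, 33.5 and 29.5 CPM in SM, without overlap, a difference of 0.26 ± 0.070 (adjusted p = 0.0626). Mbtps2 was at 23.1, 23.6 and 21.1 CPM in NSM and at 26.6, 27.1 and 24.1 CPM in SM, also without overlap, a difference of 0.20 ± 0.064 (adjusted p = 0.105). Mbtps1 separated upward too, and the rest of the list overlapped. Over all tested genes, 11.3% separated upward in this comparison. Neither Stard4 nor Mbtps2 passed 1.3-fold. Srebf1 and Srebf2, which encode the SREBP proteins, and Scap, their escort, were at -0.12, -0.05 and -0.12.

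In stressed females 6 of the 9 were higher and 3 lower, with a median of 0.04. Stard4 was at 28.9, 26.1 and 27.8 CPM in NSF and at 29.7, 28.5 and 29.4 CPM in SF, with overlap (0.08 ± 0.070, adjusted p = 0.948). The stress effects of the sexes differed by -0.17 for Stard4 (adjusted p = 0.636) and by -0.15 for Mbtps2 (adjusted p = 0.643). Srebf1, Srebf2 and Scap were higher in every stressed female library than in any stressed male one, by 0.44, 0.29 and 0.31 (adjusted p = 0.0937, 0.0884 and 0.107), the opposite side from the 6 pathway genes. Over all tested genes, 12.8% separated upward in this comparison. In unstressed mice the female minus male differences were 0.31, 0.27 and 0.24 (adjusted p = 0.205, 0.103 and 0.196). There only Srebf2 of the 3 did not overlap, where 11% of all genes separated upward. Srebf1, the regulator of fatty acid genes above all, was at 46.3, 43.4 and 48.6 CPM in SM and at 54.8, 68.1 and 65.7 CPM in SF.

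**Figure D4:**
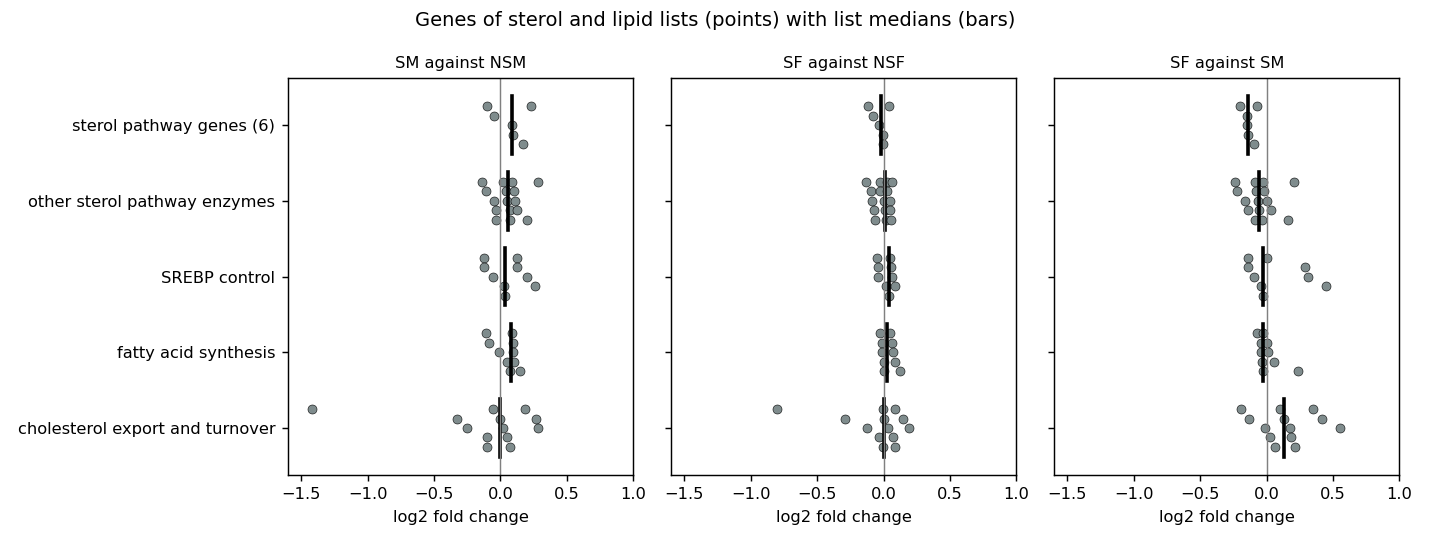
Log2 fold changes (x axis) of the 6 pathway genes and of 4 lists of related genes (y axis; points, 1 gene each; bar, list median) in SM against NSM, SF against NSF and SF against SM. No gene shown reached an adjusted p of 0.05, and Ch25h, at -1.42 in the male panel on 12 reads or fewer a library, lies farthest from 0.

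Of 10 fatty acid synthesis genes none reached an adjusted p of 0.05 in any comparison. In stressed males 7 were higher and 3 lower, with a median of 0.08, the elongase Elovl6 (-0.11, adjusted p = 0.233) and Acaca (0.10, adjusted p = 0.344) having the smallest p-values. Of 13 genes of cholesterol export and turnover none reached it either, and in stressed males 6 were higher and 7 lower (median -0.01). Soat1, which esterifies cholesterol, was at -0.25 ± 0.073 (adjusted p = 0.0790) and Cyp7b1, an oxysterol hydroxylase, at 0.28 ± 0.085 (adjusted p = 0.0843). Ch25h, the cholesterol 25-hydroxylase, passed the study's thresholds alone in that list with -1.42 ± 0.437 (adjusted p = 0.0903), and it is named after its value was seen. It rested on few reads, 12, 7 and 11 in NSM and 2, 2 and 5 in SM.

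The small RNA libraries (5086554 to 13522287 reads) held 12 miRs known for acting on cholesterol genes among 500 tested. Mir-33 lies in an intron of Srebf2 and is known to lower the exporter Abca1, and mir-148a is known for acting on genes of lipid metabolism. Their mature sequences (RefSeq, GRCm38.p6) are shown with the seed, bases 2 to 8, in capitals, since the seed decides which mRNAs a miR can pair with.
miR-33-5p (chr15:82198127-82198147, plus strand): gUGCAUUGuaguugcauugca
miR-148a-3p (chr6:51269829-51269850, minus strand): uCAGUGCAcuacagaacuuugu

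The rows of the count table carry names without an arm, whereas the methods speak of mature annotation, so which arm the counts hold is not known. Mir-33 was at 1019, 1103 and 991 CPM in NSM and at 859, 1109 and 935 CPM in SM. In females it was at 983, 810 and 695 CPM without stress and at 1111, 887 and 930 CPM after it. The groups overlapped in each sex, and the stress difference was -0.11 ± 0.124 (adjusted p = 0.767) in males and 0.24 ± 0.124 (adjusted p = 0.666) in females. No label pairs the libraries by number, and same-numbered female small RNA libraries correlated at 0.116, 0.191 and 0.307 after group means were removed. In a fit of the 6 female libraries with the number as a block, chosen after the data were seen, the difference was 0.24 ± 0.072 (adjusted p = 0.161). The pairing is not established, so the smaller SE of that fit cannot be relied on.

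Mir-148a was lower after stress in both sexes, without reaching an adjusted p of 0.05. In females it was at 7806, 8521 and 7827 CPM without stress and at 6304, 6435 and 7142 CPM after it, a difference of -0.28 ± 0.081 (unadjusted p = 0.00358, adjusted p = 0.344). The block fit of the 6 female libraries, which rests on a pairing that is not established, gave mir-148a -0.28 ± 0.063 (adjusted p = 0.0718). In males it was at 6853, 7605 and 6872 CPM and at 5676, 6874 and 6334 CPM, which overlapped, a difference of -0.18 ± 0.082 (adjusted p = 0.379). Of the 12 miRs, 1 passed the thresholds in males, where 5.2% of the 500 did, and none in females (4.8%). That miR was mir-144, a miR of red blood cells, at 173, 156 and 135 CPM in NSM and 258, 207 and 182 CPM in SM (0.47 ± 0.147, adjusted p = 0.181), and without SM1 it was at 0.34 and no longer past the thresholds. In females mir-96 passed them without NSF1 (-0.78) and with the block in the female libraries alone (-0.62, adjusted p = 0.235), and mir-122 without SF2 (-0.41). Erythroid markers in the mRNA libraries were higher in SM as well, as given above, and their part in the mir-144 level was not tested.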

How the data were processed

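Libraries were made from large and small RNA fractions of the same pools (TruSeq RNA v2, which does not mark strand, 50 bp paired-end reads; ScriptMiner, 100 bp reads). Per the methods, mRNA reads were aligned to NCBIM37 (Ensembl 67) with TopHat2 and counted per gene with HTSeq, and small RNA reads were aligned to mm9 with Bowtie and counted against mature miRBase 21. The authors deposited raw counts per Ensembl gene and per miR, not normalized, and no other unit was used. Symbols, coordinates and lengths came from an NCBIM37 annotation.

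As in the study's methods, a gene was tested if, in any group, 80% or more of its libraries had over 5 reads. Counts were scaled by TMM and fitted with voom and limma 3.58.1 (R 4.3.3), with 1 mean per group over all 12 libraries, after the script was tested on simulated data. Alternatives used edgeR 4.0.16, DESeq2 1.42.0, other scalings, filters, weights, covariates and left-out libraries. Groups came from the labels. No evidence in the labels paired libraries by number, and after group means were removed same-numbered libraries correlated at 0.0244, 0.000725 and 0.316 (male mRNA), 0.100, 0.0756 and 0.107 (female mRNA), 0.0473, -0.0197 and 0.294 (male small RNA) and 0.116, 0.191 and 0.307 (female small RNA, all over 0.1, so that its block fit is given beside the result). The genes and lists were chosen with earlier results of these data known. Named genes were all pathway genes measured, list genes with an adjusted p under 0.05 or else the 2 with the smallest p in males, and the 8 most alike in level, and any other gene named was chosen after its values were seen. Depth was high enough that pool-to-pool spread, not counting error, limited precision. Hmgcs1 counts were not analysed here, and a few genes of the lists are not reported here and enter no count or ranking of list genes. RPKM values were computed from the counts.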

Additional observations from a re-analysis of the deposited data

Results flagged for a closer look

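For Sqle, all 3 stressed male libraries lay above the mean of the unstressed males and all 3 stressed female libraries below the mean of the unstressed females. The fitted differences had opposite signs, but the 95% interval of each included 0. It ran from -0.01 to 0.35 in males and from -0.30 to 0.07 in females, whose groups overlapped. The difference of the effects, female minus male, was -0.29 on the log2 scale, with a 95% interval of -0.55 to -0.03. It was tested as an interaction in voom-limma, with an unadjusted p of 0.0315 and an adjusted p of 0.473, and did not pass the adjusted test. Over all settings other than left-out libraries, the difference of the effects ran from -0.48 to -0.08.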

How the results depend on the processing

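In none of the 5 comparisons did a pathway gene reach an adjusted p of 0.05 under any of the 24 or 25 alternatives run, which covered edgeR, DESeq2, other scalings and filters, the 6 libraries of a comparison alone, library weights, a replicate block, 3 marker covariates and each library left out. The block left 0 of the 6 genes past the thresholds in every comparison, while over all genes adjusted calls rose from 618 to 998 in males. The library numbers are not known to pair the samples. Same-numbered small RNA libraries correlated at 0.116 to 0.307 in females and at -0.0197 to 0.294 in males after group means were removed. With the block, mir-144 in males was at 0.4772 with an adjusted p of 0.0149. Over all miRs tested, the block raised adjusted calls in males from 0 to 4 and calls past the thresholds from 26 to 34. The block in the 6 female libraries alone was a setting added after the data were seen. There 1 of the 12 miRs passed the thresholds, mir-96, where 27 of all miRs tested did. The smaller differences changed sign in places, and the cause was not tested.

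With a single choice changed, the stress difference in males was -0.017 for Fdft1 with the oligodendrocyte covariate and 0.0497 for Idi1 with the astrocyte covariate. In females Fdft1 was at 7e-04 with DESeq2, 0.0024 with DESeq2 size factors, 0.0014 with the loosest filter and 0.0123 with the cortical glutamatergic covariate. There Insig1 was at 0.003 with DESeq2 size factors, 0.0039 with the loosest filter and 0.0669 with the cortical covariate. For female minus male stress effects, Dhcr7 was at -0.0435 with library weights and -0.0675 with the astrocyte covariate, under which Idi1 was at -0.0459 and 2 genes passed the thresholds, Sqle and Insig1. Over all genes, 952 passed them under the astrocyte covariate, against 822 in the main fit. With the cortical covariate Insig1 was at 0.0248 and the median of the 6 at 0.0106. Between unstressed sexes, Lss was at 0.024 and Fdft1 at 0.007 with library weights, and Fdft1 at 0.0037 with the astrocyte covariate. The cortical covariate gave -0.0235 for Sqle, -0.1793 for Insig1 and a median of -0.1489, and the oligodendrocyte covariate gave -0.1277 for Insig1 and a median of -0.1108.

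With each library left out in turn, the stress difference in males ran from -0.0976 to 0.0186 for Idi1. In females the median ran from -0.1202 to 0.0103, Idi1 from -0.0623 to 0.1156, Insig1 from -0.1443 to 0.0706 and Fdft1 from -0.0526 to 0.0329. For female minus male stress effects, 0 to 1 genes passed the thresholds, Idi1 ran from -0.0156 to 0.1531 and Dhcr7 from -0.0592 to 0.0829. Between unstressed sexes Insig1 ran from -0.0474 to 0.1712, Lss from -0.051 to 0.0479 and Fdft1 from -0.072 to 0.0637. Of the 12 miRs, 0 to 1 passed the thresholds in males and 0 to 1 in females. The direction of the median in males (0.0708 to 0.1446) and between stressed sexes (-0.174 to -0.1139) was the same whichever library was left out. The male median was -0.0047 with the oligodendrocyte covariate. Over all genes, adjusted calls in females rose from 0 to 61 without NSF2. With 3 pools a group, the SE of a difference between 2 groups was 0.054 for Lss to 0.097 for Insig1 on the log2 scale, which limits the precision.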
